A study of Mus musculus with 8 samples.

Results

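The potassium, sodium and pacemaker ion channels described here are 71 genes among the 18835 with values in the deposited expression table. They were chosen by symbol alone: those of voltage-gated sodium channels and their beta subunits (Scn genes), of potassium channels and their accessory subunits (Kcn genes), and of the HCN pacemaker channels. The noncoding RNAs Kcnq1ot1 and Kcnd3os, which have values and symbols of the same form, were left out. With noncoding RNAs left out, 113 symbols of the table matched, and 42 of them had no values, among them the lymphocyte channel Kcna3, the tandem-pore channel Kcnk1 and the sodium channels Scn1a, Scn8a and Scn9a. The sources used here do not give the rule by which the authors left genes without values.

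RNA came from whole hearts of 8 male BALB/cAJcl mice, 10 weeks old, all with autoimmune myocarditis after immunization with cardiac myosin. In 4 animals VEGF-C C156S, a variant of the lymphatic growth factor VEGF-C, had been injected into the peritoneum at 1 µg per day from day 7 to day 10, and 4 animals had received PBS over the same days. Hearts were taken in week 3, and no group without myocarditis was included, so that the comparison asks how VEGF-C C156S altered heart RNA on the background of the disease. Nothing in the labels ties a library to a litter, a day or a batch. The p-values weigh the difference between the groups against the spread among these 8 libraries within their groups. The series title names cardiac lymphatic endothelial cells, but the labelled tissue is heart, and all 12 cardiomyocyte markers examined had values.

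Voltage-gated sodium channels carry the fast inward current that starts the action potential of the working heart muscle, and potassium channels carry the outward currents that end it and set the resting potential. A pore is built of alpha subunits, and smaller accessory subunits change how many channels reach the membrane and how they open and close. HCN channels open on hyperpolarization and are known as the pacemaker channels of the sinoatrial node. In inflamed and failing hearts several of these genes are known to change, and such remodelling bears on arrhythmia.

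Of the 71 channel genes, 4 were higher and 2 were lower in VEGF-C at an adjusted p under 0.05, and 65 did not pass. Among them the pacemaker channel gene Hcn2, the potassium pore gene Kcna5 and the inward rectifier gene Kcnj12 rose, and the potassium pore gene Kcnd1 fell. Over all genes 15.7% passed, 7.05% as higher and 8.61% as lower, and the share of channel genes that passed was 8.45%. The median log2 fold change of the 71 genes was 0.057, against 0.0013 for all genes, and 37 of them had a positive value. At an unadjusted p under 0.05 there were 24 channel genes (33.8%), where 32.3% of all genes stood. The groups did not overlap in 12 channel genes (16.9%), 8 higher and 4 lower, where the background was 23.0% (11.5% higher and 11.6% lower). The test was limma on the deposited log2 values, adjusted over all 18835 genes, and fold changes below are log2 values of VEGF-C against PBS, each ± the model's standard error (SE). The depth was 61714000 to 76804000 reads per library in PBS and 53680000 to 65230000 in VEGF-C, to the nearest 1000.

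**Figure D1:**
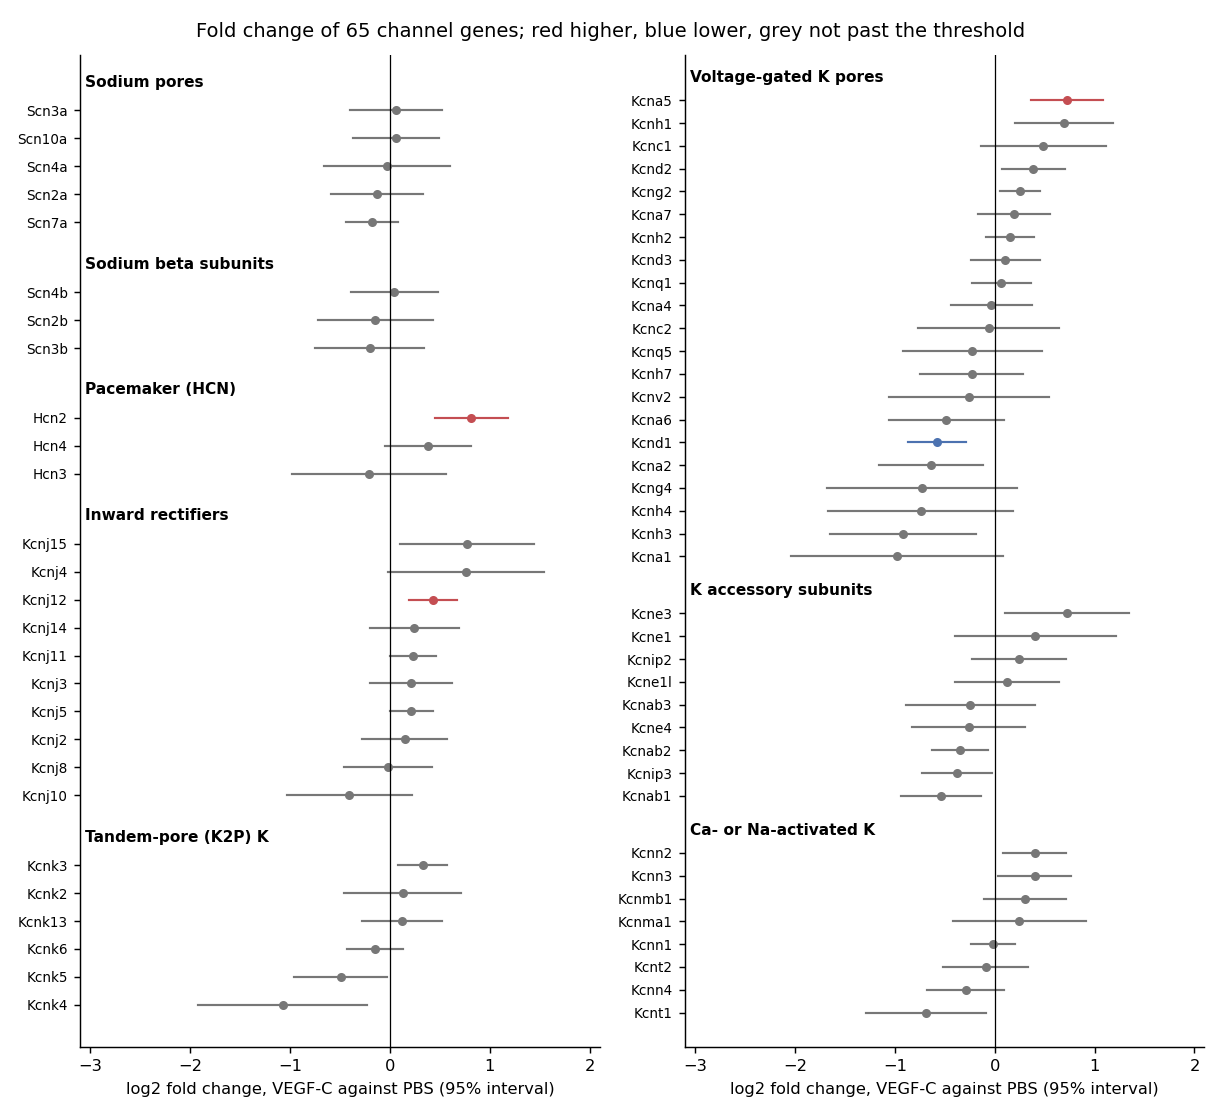
Log2 fold change (x axis, VEGF-C against PBS) of 65 channel genes by class, as points with 95% intervals of the limma fit, n = 4 libraries a group. Hcn2, Kcna5 and Kcnj12 (red) lie above 0 and Kcnd1 (blue) below it, and the widest intervals belong to genes with few reads such as Kcna1 (-2.04 to 0.079).

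The counts depended on single libraries and on the scaling. Only 2 genes, Hcn2 and Kcna5, remained as higher when replicate 2 or 3 of PBS or any VEGF-C replicate except 3 was left out. The number lower was 1 (Kcnd1) when replicate 2 or 4 of either group was left out. With PBS replicate 1 or 4 left out the number higher was 5. Scaling by library totals, which moved the median of all genes by -0.19, gave 2 channel genes higher and 11 lower, against 1.29% and 19.0% of all genes. Hcn2, Kcna5 and Kcnd1 passed in all 14 alternative fits that were run.

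Of the 4 HCN genes, Hcn2 passed as higher and the others did not, where 15.7% of all genes passed in either direction. HCN channels pass a mixed sodium and potassium current, and Hcn2 is the family member known in ventricular muscle as well as in conduction tissue. Normalized counts of Hcn2 (ENSMUSG00000020331) were 1279.6, 2242, 1487 and 2036 in PBS replicates 1 to 4 and 3159, 2619, 3265 and 3089 in VEGF-C replicates 1 to 4. Every VEGF-C library lay above every PBS library, with PBS replicates 1 and 3 the lowest. The mean rose 1.72-fold, with a log2 fold change of 0.81 ± 0.16 (95% interval 0.45 to 1.18) and a limma adjusted p of 0.0107. With each library left out in turn the log2 fold change of Hcn2 lay between 0.67 and 0.94.

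Hcn4, the main channel of sinoatrial pacemaker cells, had 591, 585, 361 and 574 normalized counts in PBS and 814, 603, 527 and 802 in VEGF-C. The groups overlapped, PBS replicate 3 being the lowest of the 8, and the log2 fold change of 0.38 ± 0.19 did not pass (adjusted p = 0.203, 95% interval -0.049 to 0.81). Hcn3, a family member read at few counts, had 25.9 ± 10.7 in PBS and 20.9 ± 5.73 in VEGF-C (SD, n = 4; log2 fold change -0.21 ± 0.35) and did not pass, and 17.1% of its exonic bases lie antisense to Pklr. Per kilobase of exon, Hcn2 made up 78.5% to 87.0% of the summed HCN level in the PBS libraries and 87.0% to 91.1% in the VEGF-C libraries.

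**Figure D2:**
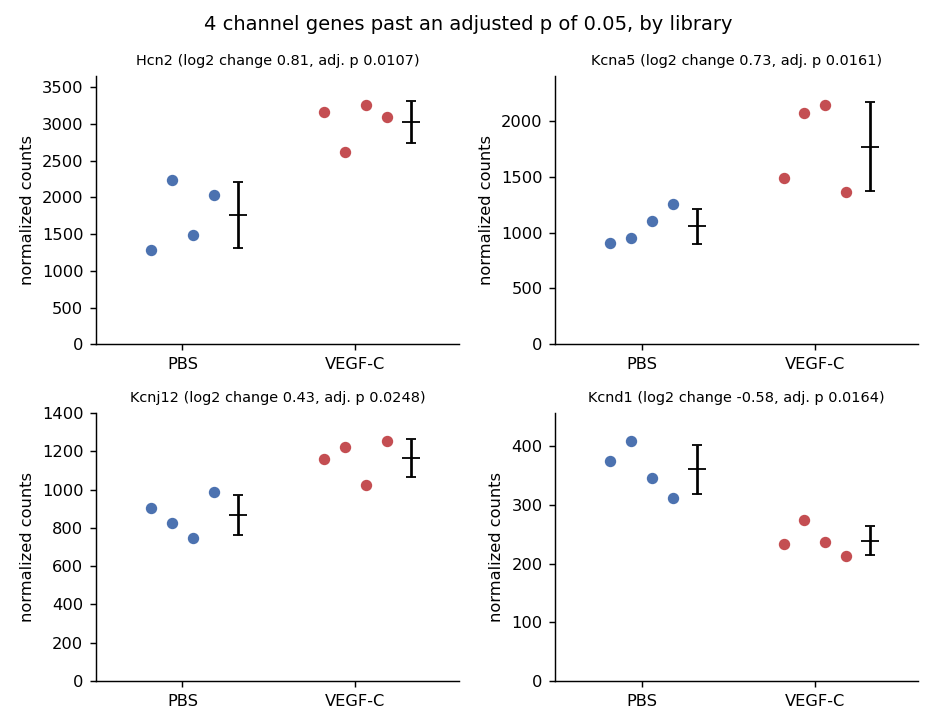
Normalized counts (y axis, from 0) of 4 channel genes that passed, 1 point per library, with mean and SD to the right of each group, n = 4 PBS (blue) and 4 VEGF-C (red). In each panel the groups do not overlap: Hcn2, Kcna5 and Kcnj12 are higher and Kcnd1 lower in VEGF-C.

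The RefSeq promoter table (build GRCm38.p6, 250 bases before to 50 after a start site) held 48 of the 71 genes, among them 3 of the 4 that rose. These 3 promoters are shown because their genes moved in the same direction and can be set side by side. They are written 5′ to 3′ on the strand of the gene, with capitals marking the GC box GGGCGG or its reverse complement CCGCCC, a match that is a description and not a known site. Hcn2 lies at chr10:79716384-79716683 on the plus strand, Kcna5 at chr6:126535506-126535805 on the minus strand and Kcnj12 at chr11:61065554-61065853 on the plus strand.
Hcn2: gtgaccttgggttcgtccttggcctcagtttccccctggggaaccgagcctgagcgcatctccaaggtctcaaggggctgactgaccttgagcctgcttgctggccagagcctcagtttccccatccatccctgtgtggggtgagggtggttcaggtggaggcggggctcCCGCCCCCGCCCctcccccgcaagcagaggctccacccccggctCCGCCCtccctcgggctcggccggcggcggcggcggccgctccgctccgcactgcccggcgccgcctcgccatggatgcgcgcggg
Kcna5: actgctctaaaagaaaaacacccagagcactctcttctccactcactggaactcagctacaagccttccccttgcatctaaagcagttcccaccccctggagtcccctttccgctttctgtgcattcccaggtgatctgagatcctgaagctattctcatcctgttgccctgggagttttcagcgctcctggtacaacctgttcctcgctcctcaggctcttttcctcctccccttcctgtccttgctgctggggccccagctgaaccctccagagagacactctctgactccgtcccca
Kcnj12: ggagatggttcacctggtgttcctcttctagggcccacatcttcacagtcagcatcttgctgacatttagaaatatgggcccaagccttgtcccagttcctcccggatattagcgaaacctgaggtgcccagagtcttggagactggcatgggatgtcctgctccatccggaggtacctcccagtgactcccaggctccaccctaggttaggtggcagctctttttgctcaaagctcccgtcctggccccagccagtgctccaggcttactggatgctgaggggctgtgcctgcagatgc
The Hcn2 window held 3 GC boxes and 26 CG dinucleotides in a sequence of 72.3% G and C, whereas those of Kcna5 and Kcnj12 held no GC box and 4 CG dinucleotides each, at 55% and 57% G and C. Both strands were searched, and none of the 3 held the TATA motif TATAAA, the CCAAT box, the E-box CACGTG or the cyclic AMP element TGACGTCA. Over the 48 channel promoters, 25 (52.1%) held GGGCGG and 1 (2.08%) held TATAAA. Over the promoters of all 26742 genes in the table, with 1 start site taken per gene, the shares were 36.2% and 14.1%. That set was not limited to genes with expression values here. The median content of G and C was 60.8% in channel promoters and 52.7% in all, and its part in the motif shares was not tested. The CCAAT box stood in 31.3% of channel promoters and 37.9% of all, the E-box in 10.4% and 7.25%, and the cyclic AMP element in 0 of 48 and 1.89%. The reads were aligned to GRCm39 and these windows are of the earlier build, so they serve for the letters and not for the position of reads.

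Among the 24 voltage-gated potassium pore genes, 2 passed as higher and 2 as lower. That share of 16.7% (8.33% each way) was near the 15.7% of all genes (7.05% higher and 8.61% lower). The class had a median log2 fold change of -0.14, negative as well with upper-quartile factors (-0.19) and library totals (-0.32), and 10 of 24 were positive. Its median level was 123 normalized counts, and 40.4% of all genes between 100 and 1000 counts were positive (median -0.077). Kcna5 (ENSMUSG00000045534) encodes Kv1.5, the pore of an ultrarapid delayed rectifier current known from atrial muscle and, in mice, from the ventricle. It had 909, 949.8, 1105 and 1254 normalized counts in PBS and 1489.7, 2071, 2145 and 1365 in VEGF-C. VEGF-C replicates 2 and 3 were the highest, and the lowest VEGF-C value still lay above the highest PBS value. The mean rose 1.68-fold (log2 fold change 0.73 ± 0.16, adjusted p = 0.0161), and the adjusted p was at most 0.0466 in any alternative.

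In the annotation used here Hcn2, Kcna5, Kcnj12 and Kcnd1 share no exonic bases with another gene. Kcng2, a silent subunit that assembles with other pores, had 5349 ± 228 in PBS and 6392 ± 769.6 in VEGF-C (SD, n = 4), and its log2 fold change of 0.25 ± 0.09 did not pass (adjusted p = 0.0850); it passed without VEGF-C replicate 3 (0.0434).

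The genes of the fast transient outward current, built in mouse ventricle from Kv4 pores, gave 1 call among the 3 Kv4 genes. Of all genes 15.7% passed. Kcnd1 (ENSMUSG00000009731), which encodes Kv4.1, fell, from 376, 409, 346 and 313 normalized counts in PBS to 233, 274, 238 and 213 in VEGF-C. The groups did not overlap, with a log2 fold change of -0.58 ± 0.13 and an adjusted p of 0.0164. Kcnd2, the gene of Kv4.2 and the most abundant of the family, had 1389, 965, 1013 and 1382 in PBS and 1419.8, 1347, 1662 and 1734 in VEGF-C. Its groups overlapped through PBS replicates 1 and 4, and the log2 fold change of 0.39 ± 0.14 did not pass (adjusted p = 0.0891); without PBS replicate 1 it passed (0.0485). Kcnd3 (Kv4.3) had 644 ± 118 in PBS and 690.1 ± 106 in VEGF-C and a log2 fold change of 0.10 ± 0.16, negative under library totals (-0.087). Kcna4 (Kv1.4), the pore of the slowly recovering transient outward current, had 128 ± 29.1 in PBS and 122 ± 4.27 in VEGF-C and a log2 fold change of -0.036 ± 0.18. Per kilobase of exon, Kcnd1 was the scarcest of the 3 Kv4 genes in VEGF-C, at 68.3 ± 7.77 in PBS and 45.3 ± 4.79 in VEGF-C, against 67.2 ± 12.3 in PBS and 72 ± 11.1 in VEGF-C for Kcnd3 and 230.4 ± 44.6 in PBS and 299 ± 36.2 in VEGF-C for Kcnd2. The differences among the 3 genes were not tested.

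The pores of the slow and rapid delayed rectifiers did not pass. Kcnq1, which with Kcne1 forms the slow current, had 4919, 3922, 3497 and 3841 in PBS and 5361, 3975, 3859 and 3768 in VEGF-C, with VEGF-C replicate 1 above the rest (log2 fold change 0.064 ± 0.13, 95% interval -0.23 to 0.36). Its antisense partner Kcnq1ot1, an imprinted noncoding RNA, was lower, from 165 ± 46.3 to 79.6 ± 6.80 normalized counts (log2 fold change -0.98 ± 0.21, adjusted p = 0.0146). In the GENCODE M21 annotation they share 121 exonic bases (2.96% of the Kcnq1 exons) on opposite strands, and since the sources used here do not give the strand setting of the counting, reads there cannot be told apart. Kcnh2, the pore of the rapid delayed rectifier, had 6469 ± 916 in PBS and 7153 ± 639 in VEGF-C (log2 fold change 0.15 ± 0.11, 95% interval -0.09 to 0.39; -0.040 under library totals).

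Most of the remaining voltage-gated pores were read at low levels. Kcna1, Kcna2 and Kcna6, potassium channels best known from axons, had log2 fold changes of -0.98 ± 0.48, -0.64 ± 0.24 and -0.48 ± 0.26, and none passed (adjusted p = 0.185, 0.0915 and 0.227); Kcna2 passed under library totals (0.0350). The Kcna1 value became -0.52 without VEGF-C replicate 2. Kcna6 shares 39.6% of its exonic bases with an antisense gene, and its counts are uncertain. Of 8 Schwann cell markers, 2 were lower in VEGF-C, among them Mbp (-0.55 ± 0.13), and the median log2 fold change of the list was -0.25 (3 of 8 positive). Their summed counts were 5973 to 8023 in PBS and 8045 to 9104 in VEGF-C, and Pmp22, which other cells also express, made up 66.1% to 83.7% of that sum (0.40 ± 0.13, adjusted p = 0.0662). The other 7 summed to 1801 to 2026 in PBS and 1439.9 to 1579.6 in VEGF-C, lower without overlap. Of 10 neuron markers 4 had no values, among them Th, Chat and Syt1, Snap25 was at 0 in at least 1 library, and the sums were 1660.0 to 2720.2 and 1673 to 3589.2; the part of nerve tissue in the Kcna1, Kcna2 and Kcna6 values was not tested. Kcnh1, known as an ether-à-go-go channel of brain and dividing cells, had 47.2, 66.5, 78.8 and 94 in PBS and 115, 104, 109.8 and 133 in VEGF-C. Its groups did not overlap, yet its log2 fold change of 0.69 ± 0.22 did not pass (adjusted p = 0.0594); without PBS replicate 4 it passed (0.0448). Kcnh3 had means of 65.2 ± 28.5 in PBS and 30.6 ± 6.57 in VEGF-C and a log2 fold change of -0.92 ± 0.33 (adjusted p = 0.0837), and it passed without PBS replicate 1 (0.0235) and under library totals (0.0450). The skeletal muscle pore Kcna7 (0.19 ± 0.16), the Kv3 pore Kcnc1 (0.49 ± 0.28), the Kv7 pore Kcnq5 (-0.23 ± 0.31) and the silent subunit Kcnv2 (-0.26 ± 0.36) did not pass either.

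None of the 9 accessory subunits of voltage-gated potassium channels passed in limma, and 4 had an unadjusted p under 0.05, as had 32.3% of all genes. Kcnip2 encodes KChIP2, the calcium-binding partner that Kv4 channels need for the transient outward current in the heart. It had 8133, 13934, 9276 and 15760.3 normalized counts in PBS and 13499.9, 10319, 14607 and 16036 in VEGF-C. PBS replicates 1 and 3 were low and the other PBS libraries lay within the VEGF-C range (log2 fold change 0.24 ± 0.21, adjusted p = 0.458). Kcne1, the partner of Kcnq1, had 321, 1193, 842 and 1169 in PBS and 839, 911, 1148 and 1331 in VEGF-C. PBS replicate 1 stood at the bottom, and without it the log2 fold change of 0.40 ± 0.36 became -0.022. Kcne4, an inhibitory subunit, had 1479 ± 455 in PBS and 1220.3 ± 358 in VEGF-C (-0.26 ± 0.26), and Kcne3 had 58.1 ± 20.5 in PBS and 95 ± 19.1 in VEGF-C (0.72 ± 0.28, adjusted p = 0.106). The cytoplasmic beta subunit genes Kcnab1 and Kcnab2, which bind Kv1 pores, had log2 fold changes of -0.54 ± 0.18 and -0.35 ± 0.13 (adjusted p = 0.0666 and 0.0850). The groups did not overlap in Kcnab1, with 161, 149, 177 and 149 in PBS and 78.5, 119.5, 122 and 118 in VEGF-C, nor in Kcnip3 (193 ± 13.5 in PBS and 149 ± 24.9 in VEGF-C). Under library totals Kcnab1, Kcnab2 and Kcnip3 passed as lower (adjusted p = 0.0210, 0.0174 and 0.0320), and Kcnab2 also without VEGF-C replicate 1 (0.0486).

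None of the 6 sodium channel pore genes and 4 beta subunit genes passed in limma. An unadjusted p under 0.05 was reached by 1 of the 10, against 32.3% of all genes. The beta subunits modulate the pores and bind the cell surface. In the 7 genes given next the intervals spanned 0. Scn7a, a sodium sensor known from nonmuscle cells of many tissues, had 1968 ± 205 in PBS and 1739.6 ± 243 in VEGF-C (SD, n = 4; log2 fold change -0.18 ± 0.12), and passed as lower under library totals only (0.0421). The skeletal muscle channel gene Scn4a had 1773 ± 684 in PBS and 1704 ± 494 in VEGF-C, with PBS values from 1046 to 2693, and a log2 fold change of -0.029 ± 0.28 (95% interval -0.66 to 0.60). Scn10a, known from sensory neurons, had 449 ± 123 in PBS and 461 ± 85.8 in VEGF-C (0.057 ± 0.19), and the neuronal channel Scn3a 86.8 ± 17.2 in PBS and 90.8 ± 17.3 in VEGF-C (0.065 ± 0.21). Of the beta subunits, Scn4b had 6189.8 ± 1574 in PBS and 6286 ± 1117 in VEGF-C (0.045 ± 0.20, -0.15 under library totals and -0.011 with upper-quartile factors), and Scn2b and Scn3b had log2 fold changes of -0.15 ± 0.26 and -0.20 ± 0.25.

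Of the 10 inward rectifier genes, 1 passed (10%, against 15.7% of all genes). Positive fold changes stood in 8 of them (median 0.22, or 0.17 with upper-quartile factors and 0.03 under library totals). The median level of the class was 1358 normalized counts, and 69.0% of all genes with a mean of 1000 or more were positive (median 0.11). Inward rectifiers hold the resting potential, and subgroups answer to G proteins or to the energy state of the cell. Kcnj12 (ENSMUSG00000042529), which encodes Kir2.2, one of the pores of the resting current, had 904, 827, 749 and 990.3 normalized counts in PBS and 1161, 1224, 1026 and 1253 in VEGF-C. The groups did not overlap, PBS replicate 4 and VEGF-C replicate 3 lying closest. Kcnj12 rose 1.34-fold (log2 fold change 0.43 ± 0.11, adjusted p = 0.0248). Under library totals the call was lost (0.111), as it was in 5 of the 8 fits with a library left out, with a largest limma adjusted p of 0.0630. The libraries concerned were replicates 2 and 3 of PBS and 1, 2 and 4 of VEGF-C. Kcnj2, the gene of Kir2.1 and the more abundant pore of the same current by reads, had 2110.1, 1665, 1539.6 and 2548 in PBS and 2585, 1564, 2009.9 and 2573 in VEGF-C. These ranges overlapped almost wholly (log2 fold change 0.15 ± 0.19, 95% interval -0.28 to 0.58; -0.041 under library totals). Per kilobase of exon Kcnj2 had 361 ± 84.3 in PBS and 401 ± 90.4 in VEGF-C. Kcnj12 had 315 ± 37.7 in PBS and 424 ± 36.7 in VEGF-C on that scale, within the SDs of Kcnj2. Kcnj4 and Kcnj14, the remaining Kir2 genes, had 54 ± 25.1 in PBS and 90.6 ± 27.4 in VEGF-C (0.76 ± 0.35, adjusted p = 0.166) and 628 ± 157 in PBS and 740.3 ± 153 in VEGF-C (0.24 ± 0.20).

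The acetylcholine-activated channel is built of the products of Kcnj3 and Kcnj5, known chiefly from atria. Kcnj3 had 1978 ± 503 in PBS and 2268 ± 446 in VEGF-C and Kcnj5 4069 ± 411 in PBS and 4713 ± 512 in VEGF-C (SD, n = 4), with log2 fold changes of 0.21 ± 0.18 and 0.21 ± 0.097 that did not pass. Of 8 atrial markers none passed in limma (median log2 fold change 0.11, or -0.082 under library totals), and their summed normalized counts were 64521 to 102124 in PBS and 51291 to 182278 in VEGF-C, VEGF-C replicate 3 being the highest. On the opposite strand to Kcnj3 another gene covers 31.1% of its exonic bases. The pores of the ATP-sensitive channel were Kcnj11, at 6419.6 ± 850.3 in PBS and 7498 ± 562 in VEGF-C (0.23 ± 0.10, adjusted p = 0.148), and Kcnj8, known from pericytes and smooth muscle, at 1723 ± 429 in PBS and 1676 ± 297 in VEGF-C (-0.02 ± 0.20). Their sulfonylurea receptor partners Abcc8 (0.22 ± 0.12) and Abcc9 (0.21 ± 0.24) did not pass. Kcnj15 ranged from 354 to 971 in PBS and from 918 to 1667 in VEGF-C (log2 fold change 0.77 ± 0.30, adjusted p = 0.109), and the glial channel gene Kcnj10 had a log2 fold change of -0.41 ± 0.28, which became -0.074 without VEGF-C replicate 2.

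Among the 6 tandem-pore (K2P) genes, whose products carry background potassium current, none passed in limma. An unadjusted p under 0.05 was reached by 3 of the 6, against 32.3% of all genes. Kcnk3 encodes TASK-1, an acid-sensitive background channel of heart muscle. It had 11916, 12733, 9668 and 12729 normalized counts in PBS and 15948, 16234, 13722 and 13069.7 in VEGF-C. All VEGF-C libraries lay above all PBS libraries, with a log2 fold change of 0.33 ± 0.11 (95% interval 0.084 to 0.57) and an adjusted p of 0.0682. The stretch-sensitive Kcnk2 (TREK-1) had 148 ± 53.2 in PBS and 158 ± 35 in VEGF-C (0.13 ± 0.26; 12.2% of its exonic bases lie antisense to another gene), and Kcnk4 (TRAAK) 28.8 ± 9.58 in PBS and 11.9 ± 5.64 in VEGF-C (-1.07 ± 0.38, adjusted p = 0.0815). Kcnk4 shares 13.2% of its exonic bases with Catsperz on the same strand, so its few counts are uncertain. Kcnk5, Kcnk6 and Kcnk13 had log2 fold changes of -0.49 ± 0.21, -0.15 ± 0.13 and 0.12 ± 0.18. Under library totals Kcnk4 and Kcnk5 passed as lower (0.0426 and 0.0495).

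None of the 8 genes of channels opened by intracellular calcium or sodium passed in limma (3 with an unadjusted p under 0.05, against 32.3% of all genes). The small-conductance channel gene Kcnn2 had 287, 238, 229 and 312 in PBS and 320.2, 330.0, 341 and 416 in VEGF-C, with no overlap and a log2 fold change of 0.40 ± 0.14 (adjusted p = 0.0839). Kcnn3 had 206 ± 19.9 in PBS and 277 ± 55.9 in VEGF-C (0.40 ± 0.17, adjusted p = 0.127), while Kcnn1, the most abundant of the class per kilobase, had 719 ± 66.8 in PBS and 708 ± 42.3 in VEGF-C and an interval of -0.24 to 0.20. Kcnn4, the intermediate-conductance channel of lymphocytes, macrophages and erythroid cells, had 276 ± 32.5 in PBS and 227 ± 51.5 in VEGF-C (-0.29 ± 0.17). Beside it, none of 10 T cell and 10 macrophage markers passed in limma (median log2 fold changes -0.045 and -0.053); under library totals the medians were -0.23 and -0.24, and the T cell markers Cd2 and Cd4 and the macrophage markers Csf1r, Itgam and Mrc1 passed as lower. In limma 6 of 8 B cell markers were lower (median -1.50; 8 of 8 under library totals). Summed counts of the T cell markers were 3477 to 4978 in PBS and 3439.8 to 4707 in VEGF-C, of the macrophage markers 157645 to 253650 and 160837 to 223181, and of the B cell markers 3839 to 6235 and 1276 to 2679, with no marker at 0; the part of immune cells in the Kcnn4 value was not tested. The large-conductance pore Kcnma1 and its smooth muscle beta subunit Kcnmb1 had 63.5 ± 20.5 in PBS and 75.4 ± 23.5 in VEGF-C and 113 ± 23.7 in PBS and 138 ± 18.3 in VEGF-C, with log2 fold changes of 0.25 ± 0.30 and 0.30 ± 0.19. The sodium-activated Kcnt1 had 60.6 ± 17.7 in PBS and 35.6 ± 8.81 in VEGF-C (-0.69 ± 0.27, adjusted p = 0.107; 0.0456 under library totals) and Kcnt2 287 ± 66.4 in PBS and 269 ± 51.7 in VEGF-C (-0.091 ± 0.19).

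To set levels of different genes side by side, normalized counts were divided by the kilobases of exon in GENCODE M21. On this scale Kcnip2 was the most abundant channel gene, at 3388 ± 1051 in PBS and 3917 ± 699 in VEGF-C (SD, n = 4), followed by Kcnk3 (2958 ± 364 in PBS and 3708 ± 398 in VEGF-C), and these 2 were within their SDs of each other. Kcng2 and Kcnj11 lay lower, at 1789.7 ± 76.4 in PBS and 2138 ± 257 in VEGF-C and 1746 ± 231 in PBS and 2039 ± 153 in VEGF-C. Among potassium pores Kcnh2 (1335 ± 189 in PBS and 1476 ± 132 in VEGF-C) and Kcnq1 (988 ± 149 in PBS and 1036 ± 184 in VEGF-C) stood above Kcna5 (368 ± 55.1 in PBS and 618 ± 139 in VEGF-C). The scarcest in PBS was Kcnma1, at 3.74 ± 1.21 in PBS and 4.44 ± 1.39 in VEGF-C. Kcnab3, Kcnc2, Kcne1l, Kcng4, Kcnh4, Kcnh7 and Scn2a did not pass in limma either, and their log2 fold changes ran from -0.74 in Kcnh4 to 0.12 in Kcne1l. Hcn4 reached 86.2 ± 18.2 in PBS and 112 ± 23.6 in VEGF-C, as against 551 ± 142 in PBS and 949 ± 89.3 in VEGF-C for Hcn2.

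**Figure D3:**
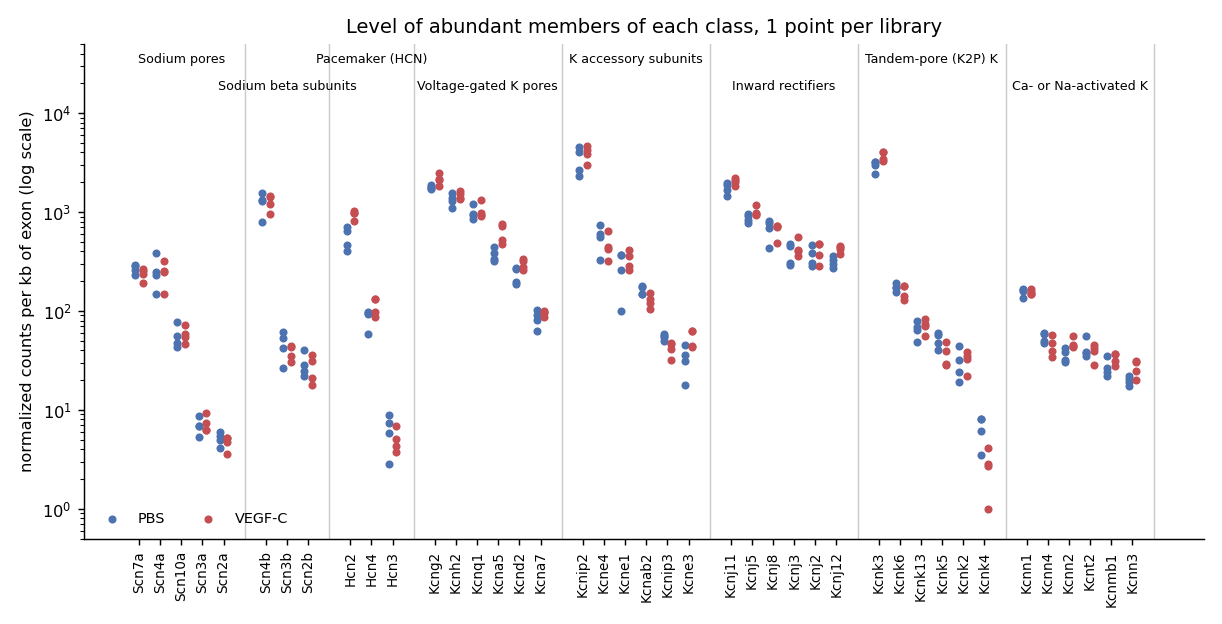
Normalized counts per kilobase of exon (y axis, log scale) of up to 6 abundant channel genes in each class, 1 point per library, PBS in blue and VEGF-C in red, n = 4 each. Kcnip2 and Kcnk3 lie highest, and Hcn2 stands above the other HCN genes shown.

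The direction of change went with the level of the gene, for channel genes and for all genes alike. Of 21 channel genes with a mean of 1000 or more normalized counts, 17 had positive fold changes (81.0%, median 0.23), and all 4 genes that rose were among them (19.0% of the 21). Over all 8328 genes at that level 69.0% were positive (median 0.11), and 19.7% passed, 13.9% as higher. Between 100 and 1000 counts, 13 of 30 channel genes were positive (median -0.063) and 2 passed as lower (6.67%). Of all 6149 genes at that level 40.4% were positive (median -0.077) and 14.0% passed, 11.5% as lower. Under 100 counts, 7 of 20 channel genes were positive (median -0.22) and none passed. Of all 4358 genes at that level 28% were positive (median -0.29) and 10.1% passed, 9.82% as lower. The share of abundant channel genes that passed was thus near that of all genes as abundant. Under library totals the order of the 3 levels was the same with lower values, 13 of 21, 9 of 30 and 5 of 20 channel genes being positive from the most to the least abundant, against 33.2%, 17.5% and 16.4% of all genes.

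**Figure D4:**
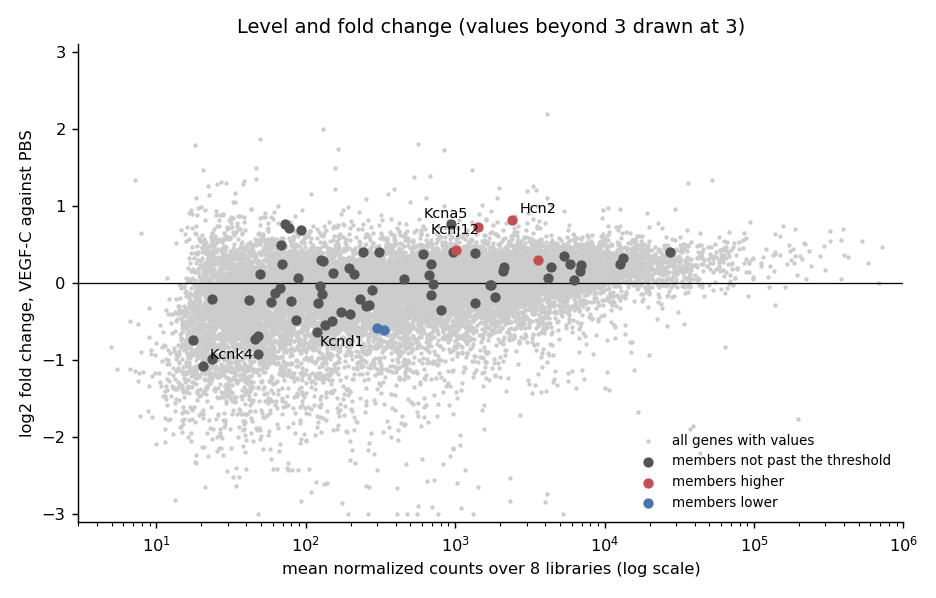
Mean normalized counts over the 8 libraries (x axis, log scale) against the log2 fold change of VEGF-C against PBS (y axis) for all 18835 genes (light grey) and the 71 channel genes (larger points: red higher, blue lower, dark grey not passed). Channel genes with a mean of 1000 or more lie mostly above 0 (17 of 21), and those under 100 mostly below it (13 of 20).

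Other genes of cardiac excitability gave the setting in which the channel genes were read. Of 9 sodium channel partners with values, 3 passed as higher, among them the ankyrin gene Ank3 (0.46 ± 0.14, adjusted p = 0.0465) and the scaffold gene Dlg1 (0.24 ± 0.068, 0.0423). With upper-quartile factors or library totals 0 of the 9 partners passed. All 4 connexin genes had positive fold changes, from Gja1 (0.14 ± 0.13) to Gja5 (0.18 ± 0.13), and all 5 sodium pump genes, among them Atp1b1 (0.44 ± 0.13, adjusted p = 0.0514); none of these 9 passed in limma, and under library totals 0 of 4 connexin and 2 of 5 pump genes were positive. Of 8 calcium and nonselective channel genes, the cation channel gene Trpm4 (-0.34 ± 0.091, 0.0309) and the chloride channel gene Ano1 (-0.66 ± 0.15, 0.0154) fell, and the L-type pore Cacna1c (0.11 ± 0.14) did not pass. Of 14 transcription factors known to act on channel genes, 1 passed: the cardiac factor Nkx2-5 rose from 3436 ± 495 to 4727 ± 700.3 normalized counts (0.46 ± 0.13, adjusted p = 0.0341), a call lost under both other scalings. The factors of pacemaker tissue Tbx3 (-0.016 ± 0.19), Shox2 (-0.32 ± 0.42) and Isl1 (-1.36 ± 0.49, read at 0 in at least 1 library) did not pass.

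On the scaling of the deposited values, summed markers of heart muscle cells and of fibroblasts were also higher in VEGF-C. Of 12 cardiomyocyte markers 11 had positive fold changes (8 under library totals; median 0.38, or 0.19 under library totals) and 2 passed as higher, Actn2 (0.61 ± 0.12) and Myom1 (0.43 ± 0.10; not under library totals), with none at 0 in any library. Their summed normalized reads were 2937790 to 3850120 in PBS and 3974400 to 4406940 in VEGF-C, without overlap on that scaling. Sums of markers were not computed under library totals. Of 5 ventricular markers Mpped2 passed as higher (0.61 ± 0.14; not under library totals). In bulk heart RNA a change in the number of cells of a type and a change in RNA per cell cannot be told apart, and the part of cardiomyocyte content in the values of Hcn2, Kcna5 and Kcnj12 was not tested. Of 10 smooth muscle and pericyte markers none passed in limma (median log2 fold change 0.14, or -0.050 under library totals, where Mcam and Myh11 passed as lower). Of 8 fibroblast markers Col1a1 was higher (0.69 ± 0.14), with a list median of 0.16 (-0.036 under library totals, where Pdgfra passed as lower). The summed fibroblast markers were 334791 to 502808 in PBS and 524440 to 643967 in VEGF-C, also without overlap on the scaling of the deposited values. Col1a1, the only fibroblast marker that passed as higher, entered these sums at 144780 ± 17127 in PBS and 233722 ± 19926 in VEGF-C (SD, n = 4). A sum without Col1a1 was not taken, so the gap is not shown for the other markers as a set. Of the 8 markers 6 were positive, while Pdgfra (-0.21 ± 0.090) and Dcn (-0.12 ± 0.15) were negative. Of 10 endothelial markers Egfl7 alone passed, as lower (-0.92 ± 0.14); 5 of the 10 were positive and the median was -0.0020 (-0.19 under library totals).

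In the authors' deposited table, 11 of the 71 channel genes had an adjusted p under 0.05, 7 higher and 4 lower, where 21.6% of all genes stood. All 6 genes called here were among them. Among the 5 further genes in the authors' deposited table were Kcnk3 (adjusted p = 0.0318) and Kcnh1 (0.0377) as higher and Kcnab1 (0.0399) and Kcnh3 (0.032) as lower.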

How the data were processed

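RNA of 8 hearts was sequenced from libraries of a stranded mRNA kit, per the labels' protocols. The submitters' processing notes name STAR 2.7.10a, Trim Galore 0.6.10, DESeq2 1.38.3, Subread 2.0.1 with featureCounts, and build GRCm39. The sources used here do not give the strand setting or annotation release. For 18835 of 56941 genes the authors deposited log2 expression values. They take the form log2(x + 4), x being reads over a size factor of the library (100% of values whole within 0.01 reads); x is called normalized count here. The authors also deposited log2 fold changes and adjusted p-values, the latter missing for 23 of these genes. Library columns name the group and a number, used as the replicate number.

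All 18835 genes were fitted with limma 3.58.1 (R 4.3.3), moderated variances with a mean-variance trend, treatment as the only factor and 6 residual degrees of freedom; p-values are two-sided with Benjamini-Hochberg adjustment. The code was tested on simulated data. Exon lengths and overlaps came from GENCODE M21 by gene ID; it is of another build, so no gene coordinates are given. Channel genes and lists were chosen with earlier results of these data known. Named with values were genes that passed with at least 50 normalized counts in the higher group, the 3 most abundant per kilobase of each class, and a list of names; Kcnh1, Kcnh3, Kcnip3 and Kcnk4 were added after their values were seen, and some genes of this rule are not reported here. Alternatives were other scalings, pseudocounts of 1 and 16, a filter on a mean of 10, limma-voom on the recovered reads and leaving out each library.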

Additional observations from a re-analysis of the deposited data

Results flagged for a closer look

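Of 130 groups of 4 libraries (65 channel genes in PBS and in VEGF-C), 9 held a library set apart from the other 3 by more than Dixon's 95% critical value on the log2 scale, where chance flags about 1 in 20 groups (6.5 of 130). VEGF-C replicate 2 was the low library in 3 of them: Kcnj8 had 1230.2 normalized counts against 1813 to 1838 in the other 3 libraries, Kcnj10 had 80.5 normalized counts against 198 to 218 in the other 3 libraries, and Kcnd3 had 533 normalized counts against 720.0 to 762 in the other 3 libraries. VEGF-C replicate 4 was high for Kcnj5, with 5474 normalized counts against 4392 to 4547 in the other 3 libraries, and low for Kcng4, with 13.3 normalized counts against 36.1 to 41.6 in the other 3 libraries. VEGF-C replicate 1 was high for Kcnq1 (5361 normalized counts against 3768 to 3975 in the other 3 libraries) and low for Kcnab1 (78.5 normalized counts against 118 to 122 in the other 3 libraries). In PBS, replicate 1 was high for Kcnh7, with 124 normalized counts against 72.7 to 78.3 in the other 3 libraries, and replicate 3 low for Hcn4, with 361 normalized counts against 574 to 591 in the other 3 libraries. None of these 9 genes had passed in limma.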

How the results depend on the processing

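Hcn2, Kcna5 and Kcnd1 kept their calls in all 14 alternatives. Kcnj12 kept its call in 8 of 14; every loss came from library totals or from leaving out 1 library. Under library totals 2 channel genes were higher and 11 lower and the median log2 fold change of the channel genes was -0.13; relative to all genes it was 0.054, against 0.056 as reported. Leaving out each library in turn gave 2 to 5 genes higher and 1 to 2 lower. The same 6 genes passed with both other pseudocounts, the filter and limma-voom.

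Signs turned for 17 named genes, none of which had passed. Under library totals log2 fold changes became -0.087 for Kcnd3, -0.040 for Kcnh2, -0.041 for Kcnj2, -0.071 for Kcnk13, -0.057 for Kcnk2, -0.13 for Kcnq1, -0.13 for Scn10a, -0.12 for Scn3a and -0.15 for Scn4b (-0.011 with upper-quartile factors). With 1 library left out they ranged from -0.14 to 0.082 for Kcna4, -0.022 to 0.61 for Kcne1, -0.22 to 0.12 for Kcnj8, -0.013 to 0.22 for Kcnk13, -0.052 to 0.33 for Kcnk2, -0.087 to 0.014 for Kcnn1, -0.053 to 0.16 for Kcnq1, -0.17 to 0.058 for Kcnt2, -0.55 to 0.051 for Kcnv2, -0.054 to 0.23 for Scn10a, -0.30 to 0.025 for Scn2b, -0.050 to 0.17 for Scn3a, -0.26 to 0.20 for Scn4a and -0.15 to 0.17 for Scn4b. Without PBS replicate 1 the value became 0.32 for Kcnc1, 0.48 for Kcne3, 0.47 for Kcnj15 and 0.48 for Kcnj4, and without PBS replicate 3 it became 0.21 for Hcn4, each over 1.5 times smaller. The cause was not tested. No paired analysis was possible because no animal number occurs in both groups and library columns carry no animal number.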

Other observations

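The spread of the channel genes within a group was uneven. On the log2 scale the SD of Kcne1 over the PBS libraries was 0.88, against 0.30 over the VEGF-C libraries, and that of Kcnj15 was 0.67 and 0.39. Kcng2 varied little in PBS (0.061). PBS replicate 3 held the lowest PBS value for 29 of the 71 channel genes and PBS replicate 1 for 22, while VEGF-C replicate 2 held the lowest VEGF-C value for 28 and VEGF-C replicate 4 the highest for 30. The antisense RNA Kcnd3os, which the choice of genes leaves out, had 25.2 ± 13.4 normalized counts in PBS and 9.05 ± 6.40 in VEGF-C and did not pass (log2 fold change -1.16 ± 0.49, limma adjusted p = 0.129).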
